A study of Drosophila mauritiana and Drosophila melanogaster and Drosophila simulans with 12 samples.

Results

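Neurons are recognised by RNA-binding proteins and transcription factors that set their identity, by the proteins that release and receive transmitter at synapses, and by the surface proteins that steer axons to their targets. In the eye-antennal imaginal disc, the larval precursor of the adult eye, antenna and head, photoreceptors differentiate behind a furrow that moves across the eye field, and their axons grow through the optic stalk towards the brain. Genes of these functions were described here in discs of 3 *Drosophila* species. The group was drawn up from 35 gene names, and 31 of them were found by FlyBase identifier in both tables of the reciprocal re-annotation, which together list 13340 genes. The other 4 (*chp*, *VAChT*, *Fas1* and *Dscam1*) had no identifier in these tables that the name table used here could pair, and they were not analysed here. Within this list of names, the mean count set which genes were reported as low (below 10 mean counts in a table). These were *eag* (4.50 mean counts) and *nAChRalpha1* (5.50) in the table with *D. melanogaster*, and the genes next above the limit were *mAChR-A* (11.8) and *ChAT* (16.3). No gene of the group was low in the table with *D. simulans*. The libraries of that table hold more counts, so the same limit stands for a lower level there.

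The samples were discs of female larvae late in the third instar, at 120 h after egg laying, raised at 25 °C, with 40 to 50 discs per sample. *D. melanogaster* OreR (replicates A to C) was compared with *D. mauritiana* TAM16 replicates A to C, all sequenced as 50 bp single-end reads. *D. simulans* YVF (replicates A to C) was compared with *D. mauritiana* TAM16 replicates D to F, all sequenced as 100 bp paired-end reads that the authors split into 50 bp reads before mapping. The authors describe YVF as a *yellow vermillion forked* stock and TAM16 as collected in Mauritius. Each species is thus represented by 1 strain, so the genotype of a strain cannot be told apart from its species. Within *D. mauritiana*, read type and set of libraries cannot be told apart either. The deposited values are counts of reads per coding sequence, given here as counts-per-million (CPM) of the TMM-scaled library size in their table, and as CPM per kilobase of the model of the same species (RPKM) where genes are compared with each other. In these bulk samples, fewer cells of a type and less RNA per cell cannot be told apart.

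The tables hold 17170747 to 34063962 counts per single-end library and 121468882 to 162437570 per paired-end library, of which the 31 genes took between 0.137 % and 0.397 %. Mitochondrial genes made up 8.87 % of the counts in *D. melanogaster* B and 9.49 % in *D. mauritiana* A, against 1.85 % to 3.54 % in the other single-end libraries and 0.729 % to 1.47 % in the paired-end libraries. These 2 libraries were also the lowest of their groups for most of the neuronal and axon genes, *D. melanogaster* B for 17 and *D. mauritiana* A for 18 of 29 genes tested, while *D. mauritiana* C was the highest of its group for 21 of 29. Among the paired-end libraries, *D. mauritiana* E was the highest of its group for 26 of 31 genes and *D. simulans* A the lowest of its group for 20 of 31. The median log2 deviation of these genes from their group mean was -0.121 in *D. melanogaster* B, -0.24 in *D. mauritiana* A and 0.447 in *D. mauritiana* C. Over all genes tested it was 0.045, 0.015 and -0.011. In *D. mauritiana* E and *D. simulans* A it was 0.158 and -0.13, against -0.003 and 0.014. A link with the mitochondrial share was not tested.

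The label of the tissue was compared with marker lists. All 9 genes of antennal and eye disc identity (*ey*, *toy*, *eya*, *so*, *dac*, *hth*, *ss*, *dan* and *al*) were measured, and their summed level was 1475 to 1520 CPM in *D. melanogaster* and 1326 to 1551 CPM in *D. mauritiana* A to C, and 1470 to 1600 CPM in *D. simulans* and 1468 to 1707 CPM in *D. mauritiana* D to F. The 7 of 8 photoreceptor markers that were found (*elav*, *gl*, *sev*, *ro*, *sens*, *ato* and *lz*) summed to 601 to 714 CPM in *D. melanogaster* and 680 to 821 CPM in *D. mauritiana* A to C. They summed to 758 to 858 CPM in *D. simulans* and 837 to 909 CPM in *D. mauritiana* D to F. None of these 7 markers was called by edgeR in either comparison. At an unadjusted p below 0.05 there were 0 with *D. melanogaster* and 2 with *D. simulans*, and DESeq2 called 0 and 2. The 2 markers of larval photoreceptors (*Rh5* and *Rh6*) summed to 3.61 to 11.6 CPM in *D. melanogaster* and 6.06 to 25.7 CPM in *D. mauritiana* A to C. Their sums were 5.17 to 11.1 CPM in *D. simulans* and 3.91 to 14.6 CPM in *D. mauritiana* D to F. edgeR called neither, while 1 had an unadjusted p below 0.05 and DESeq2 called 1 with *D. melanogaster*, against 0 and 0 with *D. simulans*.

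Other cells were visible as well. Markers of the ring gland, an endocrine organ next to the brain (3 of 4 found), summed to 16.0 to 212 CPM in *D. melanogaster* against 296 to 717 CPM in *D. mauritiana* A to C, and to 68.1 to 203 CPM in *D. simulans* against 451 to 742 CPM in *D. mauritiana* D to F. With *D. melanogaster*, edgeR called none of these 3, 2 had an unadjusted p below 0.05 and DESeq2 called 1. With *D. simulans*, all 3 were called lower. The 8 markers of neuroblasts and brain summed to 67.1 to 102 CPM in *D. melanogaster* and 97.3 to 108 CPM in *D. mauritiana* A to C, and to 59.5 to 66.4 CPM in *D. simulans* and 66.1 to 90.4 CPM in *D. mauritiana* D to F. Of these 8, edgeR called *wor* and *Ilp2* lower with *D. melanogaster*. With *D. simulans* it called *mira* and *insc* lower and *Vmat* higher. The 7 glial markers summed to 365 to 380 CPM in *D. melanogaster* and 430 to 439 CPM in *D. mauritiana* A to C, with 1 called higher (*moody*, log2-fold change 0.68) and 3 called lower (*alrm*, *wrapper* and *gcm*), while *repo*, *loco* and *nrv2* were not called. The lower call of largest size was *alrm*, which is known from astrocyte-like glia, with 0.236 to 0.491 CPM in *D. melanogaster* and 40.2 to 71.2 CPM in *D. mauritiana* A to C. In *D. simulans* and *D. mauritiana* D to F the glial sums overlapped (386 to 390 CPM and 377 to 397 CPM), but the same 3 markers were called lower in *D. simulans* (*alrm* by a log2-fold change of -4.93, *gcm* of -2.99 and *wrapper* of -0.79). The 5 of 6 muscle markers found summed to 1736 to 2058 CPM in *D. simulans* against 1165 to 1471 CPM in *D. mauritiana* D to F, with 4 called higher and 1 lower. With *D. melanogaster* the muscle sums overlapped (311 to 726 CPM, against 439 to 633 CPM in *D. mauritiana* A to C), with 1 called lower. Fat body markers summed to 140 CPM in *D. melanogaster* B, against 4112 to 4702 CPM in *D. melanogaster* A and C and 576 to 2001 CPM in *D. mauritiana* A to C. Hemocyte markers summed to 215 CPM in *D. melanogaster* B, against 1050 to 1205 CPM in A and C and 254 to 451 CPM in *D. mauritiana* A to C. None of the 5 fat body and 5 hemocyte markers was called by edgeR in either comparison. With *D. melanogaster*, 0 and 1 of them had an unadjusted p below 0.05 and DESeq2 called 0 and 1, and with *D. simulans* all these counts were 0. The ring gland sums lay lower than in *D. mauritiana* in both comparisons, as several neuronal genes did. The part of these cells in the results below was not tested. No marker of any list was at 0 in all libraries of a table.

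Per length of the coding model, the surface proteins *Nrt*, *Fas2* and *PlexA* and the transcription factor *gl* took the first 4 places in each group, and the potassium channel *eag* the last. *Nrt*, which encodes the adhesion protein Neurotactin, was the highest of the 31 genes in each group, with 155 ± 24.7 RPKM in *D. melanogaster* and 145 ± 45.9 RPKM in *D. mauritiana* A to C, and with 190 ± 14.3 RPKM in *D. simulans* and 220 ± 10.5 RPKM in *D. mauritiana* D to F (SD, n = 3 each). *Fas2*, an adhesion protein of axon bundles, came next with 108 ± 34.6 RPKM in *D. melanogaster* and 111 ± 32.2 RPKM in *D. mauritiana* A to C. Next in order was *gl*, the zinc finger factor required for photoreceptor fate, with 103 ± 8.63 RPKM in *D. melanogaster* and 90.2 ± 11.6 RPKM in *D. mauritiana* A to C. The SD ranges of neighbours in this order (*Nrt* and *Fas2*, *Fas2* and *gl*) overlapped in both single-end groups, while those of *Nrt* and *gl* did not overlap in *D. melanogaster*. The lowest gene in each group was *eag*, a potassium channel, with 2 to 13 counts per library in *D. melanogaster*, 0 to 6 in *D. mauritiana* A to C, 28 to 48 in *D. simulans* and 34 to 68 in *D. mauritiana* D to F. The genes for acetylcholine synthesis and reception (*ChAT*, *nAChRalpha1*, *nAChRalpha2*, *nAChRbeta1* and *mAChR-A*) stayed between 0.0637 and 3.88 RPKM as group means. The pan-neuronal *elav* was at 13.5 ± 0.556 RPKM in *D. melanogaster* and 16.5 ± 3.12 RPKM in *D. mauritiana* A to C, and at 33.1 ± 6.22 RPKM in *D. simulans* and 41.3 ± 4.43 RPKM in *D. mauritiana* D to F.

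**Figure D1:**
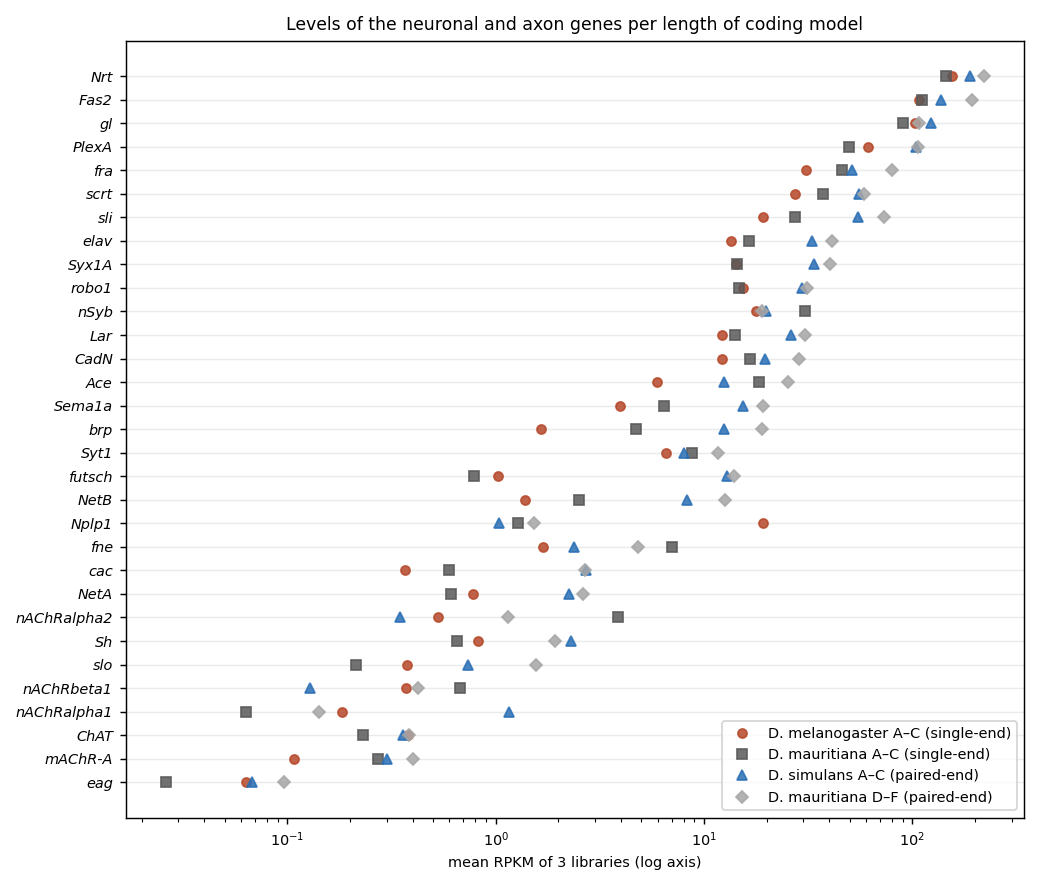
Mean RPKM of 3 libraries (x axis, log scale) for the 31 genes (y axis, sorted by their mean over the groups), with 1 symbol per group of libraries. *Nrt*, *Fas2* and *gl* lead all groups, *eag* closes the list, and *Nplp1* stands out at 19.1 RPKM in *D. melanogaster*, against 1.03 to 1.52 RPKM in the other groups.

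Between *D. melanogaster* and *D. mauritiana*, 6 of the 29 genes tested were called by edgeR (adjusted p below 0.05), 1 higher and 5 lower in *D. melanogaster*. Over all genes tested, 18.2 % were called, 8.06 % higher and 10.1 % lower. Their log2-fold changes, given as *D. melanogaster* over *D. mauritiana*, had a median of -0.42, against 0.01 over all genes tested, and 19 of 29 lay below 0, against 49.2 % of all genes. Without *D. mauritiana* C the median was -0.10, and without *D. melanogaster* B it was -0.24. The libraries of both species did not overlap for 12 genes, 10 of them lower and 2 higher, against 37.6 % of all genes (19.5 % lower and 18.1 % higher). In the table with *D. simulans*, 8 of 31 genes were called, 1 higher and 7 lower than in *D. mauritiana*. Over all genes tested there, 25.1 % were called, 12.1 % higher and 13 % lower. The median log2-fold change was -0.33, against 0.003 over all genes, and 26 of 31 lay below 0, against 49.7 % of all genes. The libraries did not overlap for 15 genes, 14 of them lower and 1 higher, against 44.6 % of all genes (23.0 % lower and 21.6 % higher). The share called was close to that of all genes in both comparisons. DESeq2, run as an alternative, called 7 of the genes with *D. melanogaster* (18.3 % of all genes) and 13 with *D. simulans* (27.3 %). The difference between both comparisons was called for 3 of the 31 genes, 2 positive and 1 negative, against 14.5 % of all genes (6.79 % positive and 7.71 % negative), and by DESeq2 for 4 (16.7 %). It was below 0 for 13 of the 31 genes, against 49.1 % of all genes. Without *D. melanogaster* B and *D. mauritiana* A together, a setting chosen after seeing the data, the same 6 genes were called with *D. melanogaster*.

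**Figure D2:**
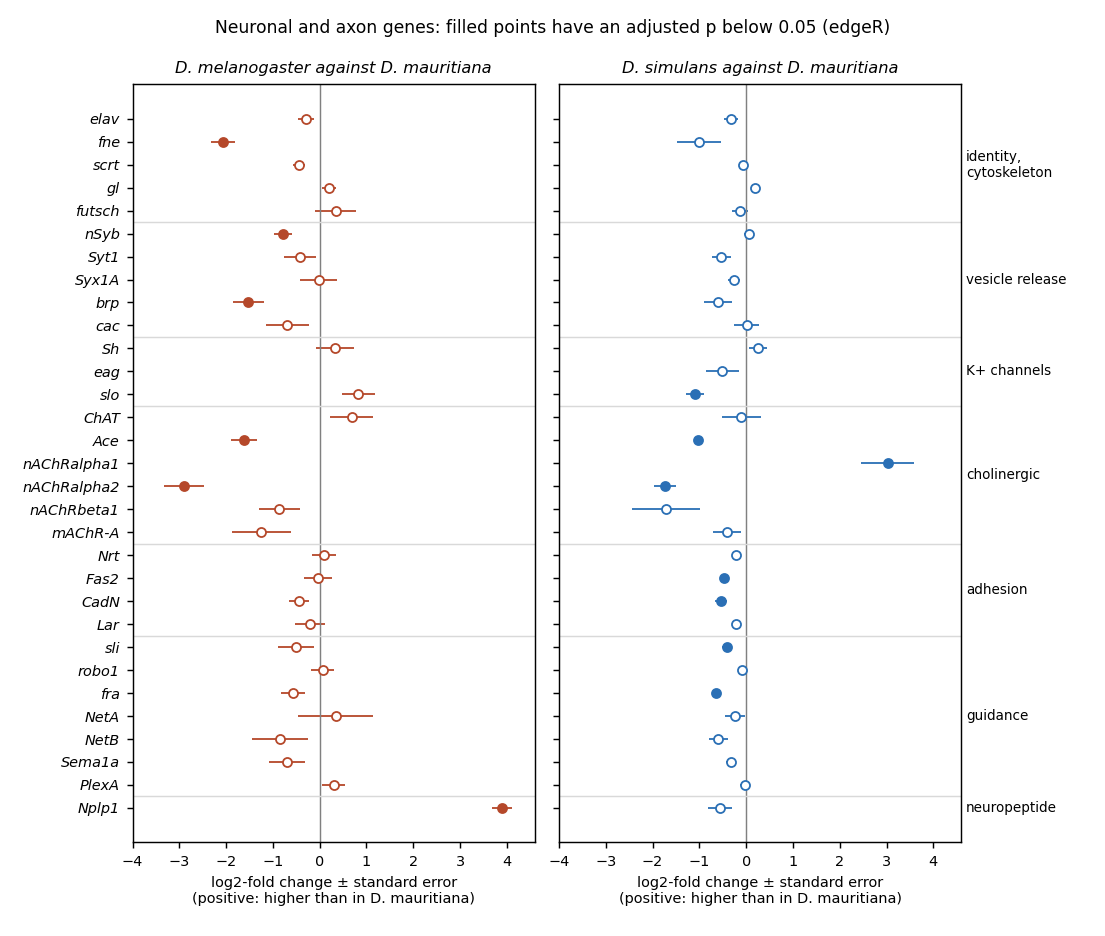
Log2-fold change with its standard error (x axis) of each gene (y axis, grouped by role) for *D. melanogaster* against *D. mauritiana* on the left and *D. simulans* against *D. mauritiana* on the right, 3 libraries per group. Filled points are called by edgeR, and genes below 10 mean counts have no point. Most points lie left of 0 in both panels, with *Nplp1* at 3.90 on the left and *nAChRalpha1* at 3.03 on the right as the called exceptions.

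*Ace* and *nAChRalpha2* were called in both comparisons, both lower than in *D. mauritiana*, which was the case for 2 of the 29 genes tested in both and for 4.04 % of all genes tested in both (8.06 % were called in both in any direction). The comparisons share no library. *Ace* encodes acetylcholinesterase, which breaks down acetylcholine at the synapse, and its model (FBgn0000024) of 1950 nt has 9 exons on arm 3R of the published *D. mauritiana* genome (positions 11927025 to 11943421). It had 13.7, 7.74 and 13.4 CPM in *D. melanogaster* A to C, against 33.2, 29.5 and 45.3 CPM in *D. mauritiana* A to C. It had 22.6, 25.0 and 25.4 CPM in *D. simulans* A to C, against 46.2, 54.4 and 47.4 CPM in *D. mauritiana* D to F. Neither pair of groups overlapped. The log2-fold change was -1.63 (SE 0.28, edgeR adjusted p = 0.00752) for *D. melanogaster* and -1.02 (SE 0.09, adjusted p = 0.000369) for *D. simulans*, and the difference between both was not called (adjusted p = 0.240).

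*nAChRalpha2*, a subunit of the nicotinic acetylcholine receptor (FBgn0000039, 1731 nt, 7 exons, arm 3R, 19566413 to 19571133), had 0.516, 1.29 and 0.944 CPM in *D. melanogaster* A to C, against 8.57, 6.48 and 5.09 CPM in *D. mauritiana* A to C. It had 0.623, 0.565 and 0.619 CPM in *D. simulans* A to C, against 1.71, 2.35 and 1.92 CPM in *D. mauritiana* D to F. Every library of *D. melanogaster* and *D. simulans* was below every library of the *D. mauritiana* set it was compared with. The log2-fold change was -2.90 (SE 0.43, adjusted p = 0.00441) for *D. melanogaster* and -1.73 (SE 0.23, adjusted p = 0.00241) for *D. simulans*. The difference between both comparisons was -1.17 (SE 0.45) and was not called by edgeR (adjusted p = 0.113), but it was called by DESeq2 and without *D. melanogaster* B.

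None of the other cholinergic genes was called lower. *nAChRalpha1*, a further subunit of the nicotinic receptor (FBgn0000036, 1806 nt in *D. simulans*, 9 exons, arm 3R, 19484415 to 19503389), had 1.53, 2.26 and 2.50 CPM in *D. simulans* A to C, against 0.0965, 0.470 and 0.203 CPM in *D. mauritiana* D to F, which are 187 to 405 counts and 12 to 68 counts. The groups did not overlap, and the log2-fold change was 3.03 (SE 0.56, adjusted p = 0.00886). In the table with *D. melanogaster* it was low, with 4 to 15 counts in *D. melanogaster* and 1 to 6 counts in *D. mauritiana* A to C, and was not tested. *nAChRbeta1* had 0.0738, 0.175 and 0.352 CPM in *D. simulans* A to C, against 0.281, 1.25 and 0.463 CPM in *D. mauritiana* D to F, and these groups overlapped (log2-fold change -1.72, SE 0.73, adjusted p = 0.134). In the other table it had 0.579 ± 0.0860 CPM in *D. melanogaster* and 1.06 ± 0.371 CPM in *D. mauritiana* A to C (SD, n = 3 each) and was not called (adjusted p = 0.231). For *mAChR-A*, a muscarinic receptor, the 14, 1 and 6 counts (0.481, 0.0614 and 0.236 CPM) in *D. melanogaster* A to C stood against 12, 22 and 16 counts (0.740, 0.648 and 0.599 CPM) in *D. mauritiana* A to C. Its log2-fold change of -1.25 (SE 0.63) was not called (adjusted p = 0.227). *ChAT*, the enzyme that makes acetylcholine, had group means of 0.821 ± 0.235 CPM in *D. melanogaster* and 0.499 ± 0.160 CPM in *D. mauritiana* A to C, and of 0.780 ± 0.233 CPM in *D. simulans* and 0.836 ± 0.414 CPM in *D. mauritiana* D to F (SD, n = 3 each), and was called in neither comparison.

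The gene with the largest log2-fold change of the group was *Nplp1*, the precursor of neuropeptide-like peptides (FBgn0035092, 1464 nt, 5 exons, arm 2R, 18843311 to 18850434). It had 28.0, 25.1 and 30.9 CPM in *D. melanogaster* A to C, against 2.10, 1.91 and 1.65 CPM in *D. mauritiana* A to C. In the other table it had 1.43, 1.70 and 1.42 CPM in *D. simulans* A to C and 1.62, 2.74 and 2.32 CPM in *D. mauritiana* D to F. The *D. melanogaster* libraries stood apart from all others, and those of *D. simulans* overlapped with *D. mauritiana*. The level was 14.9-fold higher in *D. melanogaster* (log2-fold change 3.90, SE 0.21, edgeR adjusted p = 6.29e-05), and the difference between both comparisons was called (4.45 on the log2 scale, SE 0.31, adjusted p = 4.22e-06). *Nplp1* was thus the only gene of the group higher in *D. melanogaster* than in *D. mauritiana* that passed the test. Per length, it ranked 8th of the 31 genes in *D. melanogaster* and 21st in *D. mauritiana* A to C. The authors had chosen *Nplp1* as a control for quantitative PCR because these same RNA-seq libraries already showed a difference. In their quantitative PCR it was again higher in *D. melanogaster* than in *D. mauritiana*, but by less and not significantly.

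**Figure D3:**
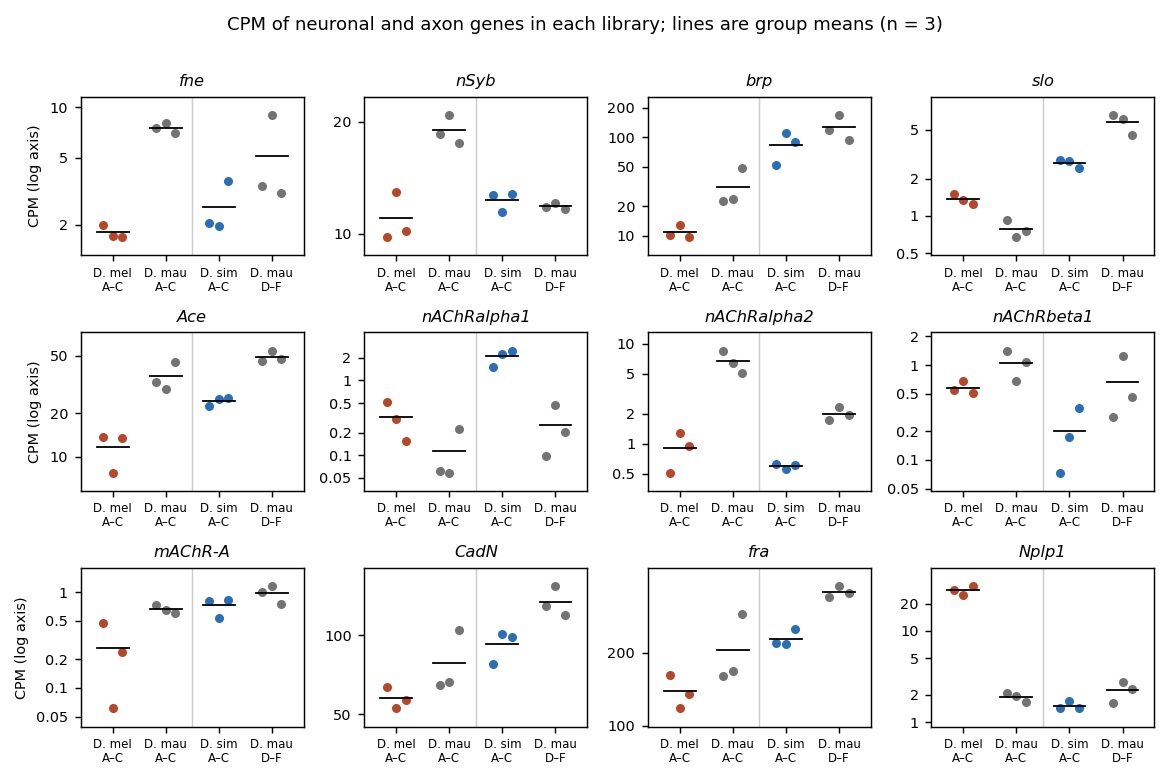
CPM of 12 genes (log axes) in each library of *D. melanogaster* (A to C), *D. mauritiana* (A to C), *D. simulans* (A to C) and *D. mauritiana* (D to F), with points for libraries and lines for means of 3. The grey line inside a panel separates single-end from paired-end libraries. *Ace* and *nAChRalpha2* are lower than in the *D. mauritiana* set beside them in both table pairs, and *Nplp1* is high in *D. melanogaster* alone.

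Of the genes for vesicle release and the active zone, *nSyb* and *brp* were lower in *D. melanogaster*. The model of *nSyb*, the vesicle SNARE protein of neurons, is the shortest of the group (FBgn0013342, 621 nt, 4 exons, arm 3L, 1519808 to 1522228). It had 9.80, 12.96 and 10.2 CPM in *D. melanogaster* A to C, against 18.5, 20.8 and 17.5 CPM in *D. mauritiana* A to C, with a log2-fold change of -0.79 (SE 0.19, adjusted p = 0.0274). In *D. simulans* the level was 12.3 ± 0.755 CPM, against 11.8 ± 0.249 CPM in *D. mauritiana* D to F (SD, n = 3 each). The groups overlapped there, and the difference between both comparisons was called (-0.85, SE 0.19, adjusted p = 0.0100). The call of *nSyb* was lost without *D. melanogaster* A (adjusted p = 0.118) or C (0.127) and without *D. mauritiana* A (0.0523) or B (0.0924).

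*brp* encodes Bruchpilot, a scaffold of the active zone where vesicles fuse (FBgn0259246, 6683 nt in *D. mauritiana*, 22 exons, arm 2R, 3880731 to 3909731). It had 10.3, 12.9 and 9.79 CPM in *D. melanogaster* A to C, against 22.4, 23.6 and 48.6 CPM in *D. mauritiana* A to C. The groups did not overlap, although *D. mauritiana* C was more than 2-fold above A and B (log2-fold change -1.53, SE 0.33, adjusted p = 0.0185). The call was lost without *D. melanogaster* A (adjusted p = 0.0654) or C (0.0784). With *D. simulans*, *brp* had 84.0 ± 29.5 CPM in *D. simulans* and 127 ± 38.0 CPM in *D. mauritiana* D to F and was not called, and the difference between both comparisons was not called either (adjusted p = 0.247). The calcium sensor *Syt1*, the plasma membrane SNARE *Syx1A* and the presynaptic calcium channel *cac* were called in neither comparison. Their group means ranged from 2.16 CPM (*cac* in *D. melanogaster*) to 35.9 CPM (*Syx1A* in *D. mauritiana* D to F). *Syt1* was lower in *D. simulans* without overlap (11.5 ± 2.71 CPM, against 16.6 ± 2.68 CPM in *D. mauritiana* D to F) and was called by DESeq2 alone.

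Of the potassium channels, *slo* was called with *D. simulans*, and none was called with *D. melanogaster*. It encodes the pore of the calcium-activated channel (FBgn0003429, 3654 nt, 24 exons, arm 3R, 19747649 to 19785118). It had 2.85, 2.78 and 2.46 CPM in *D. simulans* A to C, against 6.60, 6.08 and 4.53 CPM in *D. mauritiana* D to F (log2-fold change -1.09, SE 0.20, adjusted p = 0.00781). In the single-end libraries the order was the opposite without overlap, with 1.51, 1.35 and 1.26 CPM in *D. melanogaster* A to C, against 0.924, 0.677 and 0.748 CPM in *D. mauritiana* A to C, but this was not called (adjusted p = 0.162), except in 1 fit over 12 libraries (adjusted p = 0.0278, with 0.0278 to 0.431 over the alternatives run). The difference between both comparisons was called (1.92 on the log2 scale, SE 0.34, adjusted p = 0.00264). *Sh*, the Shaker channel, was not called on the reciprocal models, with 1.62 ± 0.621 CPM in *D. melanogaster* and 1.28 ± 0.0865 CPM in *D. mauritiana* A to C, and with 4.51 ± 0.208 CPM in *D. simulans* and 3.79 ± 0.810 CPM in *D. mauritiana* D to F.

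Among the genes of neuronal identity and cytoskeleton, *fne* was the 1 called gene. It encodes an RNA-binding protein related to Elav (FBgn0086675, 1071 nt, 5 exons, arm X, 11975605 to 11978480). It had 1.99, 1.72 and 1.69 CPM in *D. melanogaster* A to C, against 7.58, 8.04 and 7.03 CPM in *D. mauritiana* A to C (log2-fold change -2.06, SE 0.25, adjusted p = 0.00222). In the other table it had 2.04, 1.97 and 3.65 CPM in *D. simulans* A to C, against 3.39, 9.01 and 3.07 CPM in *D. mauritiana* D to F. These groups overlapped, with *D. mauritiana* E far above D and F, and the log2-fold change was not called (-1.01, SE 0.47, adjusted p = 0.165). Without *D. mauritiana* E it was -0.34. The difference between both comparisons was not called (adjusted p = 0.263), but it was called without *D. mauritiana* E. DESeq2, run as an alternative, called *fne* with *D. simulans* (adjusted p = 0.0495).

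None of the other identity genes was called by edgeR on the reciprocal models. *elav* had 18.8 ± 0.773 CPM in *D. melanogaster* and 23.0 ± 4.34 CPM in *D. mauritiana* A to C, and 46.0 ± 8.64 CPM in *D. simulans* and 57.5 ± 6.17 CPM in *D. mauritiana* D to F (SD, n = 3 each). The libraries did not overlap in either comparison, but neither difference was called (adjusted p = 0.324 and 0.160). *scrt*, a zinc finger factor of early neurons, had 53.6 ± 4.22 CPM in *D. melanogaster* and 72.9 ± 4.56 CPM in *D. mauritiana* A to C and stood just outside the threshold (edgeR adjusted p = 0.0514), and it was called by DESeq2. *gl* overlapped between the groups in both comparisons. The model of *futsch*, the gene for a large microtubule-associated protein of axons, is the 1 model of the group whose length differs by more than 49 nt, with 7466 nt in *D. melanogaster* and 7467 nt in *D. simulans*, against 7607 nt in *D. mauritiana*. It was called in neither comparison and overlapped in both.

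Of the 11 adhesion and guidance genes, 4 were called with *D. simulans* and none with *D. melanogaster*. For the 4 adhesion and 7 guidance genes with *D. melanogaster*, edgeR called 0, none had an unadjusted p below 0.05, and DESeq2 called 0. With *D. simulans*, edgeR called *Fas2*, *CadN*, *sli* and *fra*, all lower in *D. simulans*, against 13 % of all genes called lower. The libraries of all 4 adhesion genes and of 5 guidance genes lay below *D. mauritiana* without overlap, against 23.0 % of all genes. All 4 calls were lost in 1 fit over 12 libraries, with adjusted p = 0.0719 for *fra*, 0.0946 for *CadN*, 0.269 for *Fas2* and 0.509 for *sli*, which were the highest values of these genes over the alternatives run. The differences between both comparisons were called for none of these 11 genes (0 with an unadjusted p below 0.05, 0 by DESeq2), so a difference particular to *D. simulans* was not shown.

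*fra* encodes Frazzled, the receptor for netrins (FBgn0011592, 4483 nt, 9 exons, arm 2R, 6820991 to 6827423). It had 219, 217 and 251 CPM in *D. simulans* A to C, against 342, 377 and 355 CPM in *D. mauritiana* D to F (log2-fold change -0.64, SE 0.08, adjusted p = 0.00148). In the single-end libraries it had 162, 118 and 136 CPM in *D. melanogaster* A to C, against 160, 168 and 289 CPM in *D. mauritiana* A to C. These groups overlapped, since *D. melanogaster* A lay between *D. mauritiana* A and B. Its log2-fold change there was -0.57 (adjusted p = 0.179), with a standard error of 0.26 in place of 0.08.

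*CadN* encodes N-cadherin, which guides photoreceptor axons to their target layers (FBgn0015609, 4707 nt in *D. mauritiana*, 8 exons, arm 2L, 16921667 to 16935819). It had 78.1, 101 and 98.3 CPM in *D. simulans* A to C, against 130, 154 and 120 CPM in *D. mauritiana* D to F (log2-fold change -0.54, SE 0.13, adjusted p = 0.0231). The call was lost without *D. simulans* C (adjusted p = 0.0532) and without *D. mauritiana* D (0.0650) or E (0.0596). *CadN* did not overlap in the single-end libraries either, with 63.4, 52.7 and 56.5 CPM in *D. melanogaster* A to C, against 64.8, 66.3 and 105 CPM in *D. mauritiana* A to C, but was not called there.

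*Fas2* had 359 ± 21.5 CPM in *D. simulans* and 502 ± 20.3 CPM in *D. mauritiana* D to F (SD, n = 3 each, adjusted p = 0.00285). *sli*, the ligand Slit that repels axons, had 356 ± 38.4 CPM in *D. simulans* and 472 ± 50.7 CPM in *D. mauritiana* D to F (adjusted p = 0.0338). The call of *sli* was lost without *D. simulans* A or C and without *D. mauritiana* D or E. Its receptor *robo1* had 123 ± 5.33 CPM in *D. simulans* and 131 ± 3.68 CPM in *D. mauritiana* D to F and was not called. *PlexA*, the receptor of the transmembrane semaphorin *Sema1a*, had 607 ± 79.3 CPM in *D. simulans* and 619 ± 23.2 CPM in *D. mauritiana* D to F and overlapped in both comparisons. *Nrt*, *Lar*, *NetB* and *Sema1a* were lower in *D. simulans* without overlap and were not called by edgeR. DESeq2 called *Nrt*, *NetB* and *Sema1a* of these. The netrin gene *NetA* was not called in either comparison.

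The levels of long genes depended on the set of libraries. *D. mauritiana* was measured in both sets, and 29 genes had at least 10 mean counts in each. For 21 of them all 3 paired-end libraries were above all 3 single-end libraries, against 31.2 % of all genes, and for 2 genes they were all below, against 33.7 % of all genes. *futsch*, with the longest model, had 108, 115 and 93.8 CPM in *D. mauritiana* D to F, against 4.07, 3.97 and 9.99 CPM in A to C, which is a ratio of 17.6 between the means. The ratio was 7.33 for *slo*, 4.51 for *cac*, 4.03 for *brp* and 2.66 for *sli*. It was below 1 for *nSyb* (0.625) and *nAChRalpha2* (0.297), which did not overlap, and for *fne* (0.683) and *nAChRbeta1* (0.627), which did. All 11 genes with models of at least 3000 nt were higher in D to F, with a median log2 ratio of 1.41, and 14 of the 18 with shorter models were, with a median of 0.57. Over all genes, 1254 of 1352 with models of at least 3000 nt and 3197 of 8186 with shorter models were higher in D to F, with medians of 0.68 and -0.19.

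Across the 29 genes, the log2 ratio and the log2 length had a Pearson's r of 0.505 and a Spearman's rho of 0.496, and across all 9538 genes of r = 0.504 and rho = 0.618. Genes of 1 library share its depth and preparation, so these values are descriptions and were not tested. Short models stood out too, since *NetB* (1492 nt) and *NetA* (1114 nt) had ratios of 5.03 and 4.33. Since *D. mauritiana* A to C and D to F differ in read type and in the set of libraries, these cannot be told apart. Differences between *D. melanogaster* and *D. simulans* were therefore tested only through *D. mauritiana*, and their levels side by side also differ in read type.

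**Figure D4:**
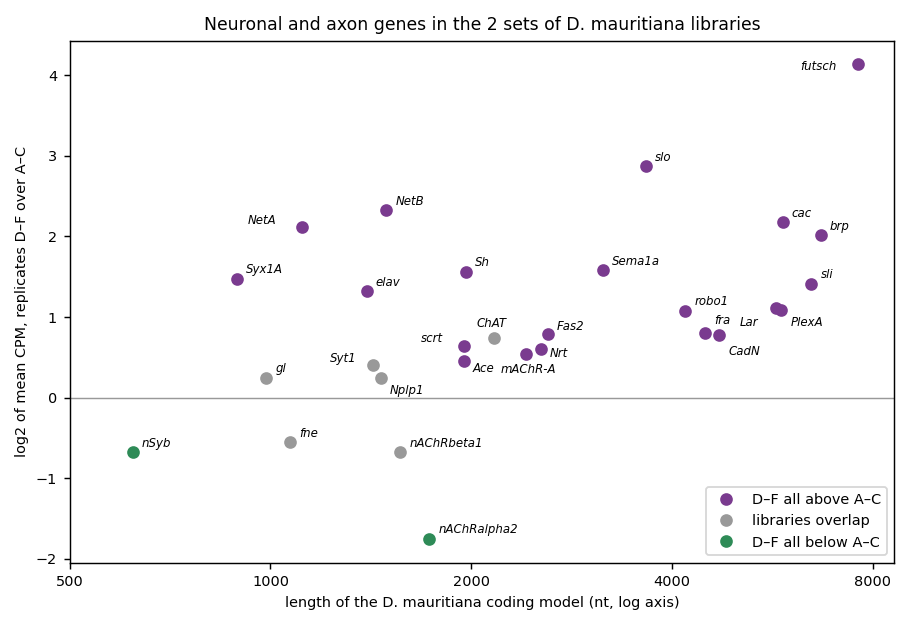
Log2 ratio of the mean CPM in *D. mauritiana* replicates D to F over that in A to C (y axis) against the length of the coding model (x axis, log scale) for 29 genes, 3 libraries per set. Points above 0 are higher in the paired-end set. The 11 genes of at least 3000 nt are all above 0, with *futsch* at 4.13, while *nSyb* and *nAChRalpha2* are below 0 without overlap of libraries.

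Genes of the same functions outside the group were counted in 8 lists. Of other vesicle release and active zone genes, 8 of 32 tested were called with *D. melanogaster*, 1 higher and 7 lower, and 11 of 33 with *D. simulans*, 4 higher and 7 lower. Of other voltage-gated and calcium-gated channels, 2 were higher and 5 lower of 18 with *D. melanogaster*, and 1 was higher and 7 lower of 19 with *D. simulans*. Of other acetylcholine receptor genes, 0 were higher and 1 lower of 6, and 0 higher and 3 lower of 9. Of other genes of transmitter synthesis and transport, 0 were higher and 4 lower of 17, and 1 was higher and 6 lower of 18. Of other guidance genes, 1 was higher and 7 lower of 43, and 1 higher and 9 lower of 46. Of other axon adhesion genes, 0 were higher and 5 lower of 33, and 2 higher and 9 lower of 37. Of other neuronal identity genes, 1 was higher and 1 lower of 25, and 0 higher and 4 lower of 25. Of neuropeptide genes with their processing enzymes and receptors, 1 was higher and 6 lower of 27, and 2 higher and 5 lower of 32. Over the 8 lists, 20.9 % of 201 genes were called with *D. melanogaster* (6 higher, 36 lower, median log2-fold change -0.27) and 27.9 % of 219 with *D. simulans* (11 higher, 50 lower, median -0.21). The shares called are near the 18.2 % and 25.1 % of all genes, and the calls were mostly lower than *D. mauritiana*.

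In each list, the called genes with the largest positive and the largest negative change were picked out. The genes with the largest negative change were the same in both comparisons for 5 lists. *Dscam4*, an immunoglobulin adhesion gene, had a log2-fold change of -2.36 (SE 0.24, adjusted p = 0.00111) with *D. melanogaster* and of -3.21 (SE 0.28, adjusted p = 0.000378) with *D. simulans*. *Ca-alpha1T*, a calcium channel subunit, had log2-fold changes of -3.31 (adjusted p = 0.00147) and -2.42 (adjusted p = 0.000965), and *Irk3*, an inwardly rectifying potassium channel, had -2.60 in both (adjusted p = 0.000776 and 4.76e-05). *Tbh*, the enzyme for octopamine synthesis, had -2.69 and -2.62. The receptor gene *nAChRalpha5* had -1.88 with *D. melanogaster* and -6.03 with *D. simulans*, where it averaged 0.111 CPM in *D. simulans* and 7.36 CPM in *D. mauritiana* D to F. *Rbp9*, a further gene of the Elav family, was higher in *D. melanogaster* (9.95 CPM, against 3.95 CPM in *D. mauritiana*, log2-fold change 1.33, adjusted p = 0.0234), which is the opposite of *fne*. Among the neuropeptide genes *CCHa1* was at 134 CPM in *D. melanogaster* and 0.425 CPM in *D. mauritiana* A to C (log2-fold change 8.27, adjusted p = 6.29e-05).

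The other largest changes differed between the comparisons. With *D. melanogaster*, the log2-fold change was positive for the potassium channel *Elk* (2.79) and the guidance gene *beat-Ia* (2.98). It was negative for *fred* (-3.43), which had been placed in the guidance list, and the microtubule gene *tau* (-1.77). *Syt12*, of the synaptotagmin family, averaged 1.71 CPM in *D. melanogaster* and 0.0830 CPM in *D. mauritiana* A to C, and the insulin-like peptide gene *Ilp5* averaged 0.0246 CPM in *D. melanogaster* and 2.52 CPM in *D. mauritiana* A to C. With *D. simulans*, it was positive for the active zone gene *Rim* (1.86), the potassium channel *Irk2* (1.61), the monoamine transporter *Vmat* (1.61), the adhesion gene *bdl* (1.01), the receptor *Drl-2* (0.93) and the insulin-like peptide gene *Ilp8* (2.97). It was negative there for the transcription factor *onecut* (-0.71), *beat-IV* (-1.93) and *Ilp7* (-2.01).

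The gene models of the group were complete in most cases. The reciprocal model kept at least 99 % of the direct *D. melanogaster* model for 21 of the 31 genes and less than 90 % for 5, which is 16.1 % of the group, against 5.55 % of all genes. These 5 were *futsch*, *gl*, *CadN*, *NetA* and *NetB*. The published annotations lacked 8 of the 31 genes in the table with *D. melanogaster* (25.8 %, against 14.2 % of all genes) and 20 in the table with *D. simulans* (64.5 %, against 25.1 %). *elav*, *futsch*, *nSyb*, *nAChRalpha1*, *nAChRalpha2*, *nAChRbeta1*, *mAChR-A* and *NetB* were absent from both. The 12 absent only from the table with *D. simulans* were *brp*, *cac*, *Sh*, *eag*, *Ace*, *Fas2*, *CadN*, *Lar*, *sli*, *NetA*, *Sema1a* and *PlexA*. Of the 8 genes called with *D. simulans* on the reciprocal models, the published annotations thus held *slo* and *fra*, which were called there too. On the direct models, which are longer for these 5 genes in *D. melanogaster*, *NetA*, *futsch* and *scrt* were called in addition with *D. melanogaster* (9 genes, against 19.7 % of all genes), and *futsch* and *gl* with *D. simulans* (10 genes, against 27.5 %). Direct models differed in length for *NetA* (2181 nt in *D. melanogaster*, 1114 nt in *D. mauritiana*) and *futsch* (16488 and 7370 nt). With *D. simulans* they did for *futsch* (11354 nt, against 7370 nt in *D. mauritiana*) and *gl* (986 and 2040 nt). The part of these lengths in the calls was not tested. On the published models with *D. melanogaster*, *cac* (log2-fold change 5.84) and *Sh* (-1.54) were called in addition, both opposite in sign to the values on the reciprocal models (-0.70 and 0.33). The published *cac* model has 219 nt in *D. mauritiana* and 5862 nt in *D. melanogaster*, so the value of 5.84 compares models of unequal length. The published *Sh* models have 1953 and 1965 nt. On the direct models, the difference between both comparisons was called for 6 genes, against 15.9 % of all genes.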

How the data were processed

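RNA-seq libraries were made by the authors from 500 ng of total RNA with the TruSeq RNA kit. Untrimmed reads were aligned by the authors to species-specific coding sequences (Bowtie2), without UTRs, and tallied per transcript (SAMtools 0.1.19). The authors deposited the raw counts and, beside them, model lengths in nt. Paired-end reads had been cut to 50 bp pieces, so that 1 read pair can give up to 4 counts. How reads shared by paralogs (*elav*, *fne* and *Rbp9*, the nicotinic receptor subunits, the netrins) were treated and how strand was used is not given in the sources used here. In the alignment files deposited with the tables, positions refer to the published *D. mauritiana* genome and to coding sequences of FlyBase r5.55. Symbols were paired through a name table. No column of samples was left unused (0).

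Genes kept by filterByExpr were tested with the quasi-likelihood test of edgeR 4.0.16 and TMM (R 4.3.3), with 3 against 3 libraries of 1 read type per comparison, and adjusted by Benjamini-Hochberg over all genes. The difference between both comparisons was a contrast over the 12 libraries. Standard errors are the log2-fold change over the root of F. Alternatives were RLE normalization, no filter, DESeq2 1.42.0, a length offset, the direct and published tables, 1 fit over 12 libraries, a replicate block and leaving out libraries. The fits were tested on simulated data. The genes and lists were chosen with earlier results of these data known. Values in every library were given for genes called with an absolute log2-fold change of at least 0.5, or not called with group means over 2-fold apart. *CadN*, *fra*, *slo*, *fne* and *Nplp1* were also given in the other comparison. From each list, the called genes with the largest positive and negative change among those with at least 10 mean counts were named. The samples are described by the authors as biological replicates. Whether they came from separate cultures is not given in the sources used here. The p-values thus set a difference of group means against the spread between these samples only. The columns hold no comparisons of the authors.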

Additional observations from a re-analysis of the deposited data

Results flagged for a closer look

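For 3 of the 31 genes, the difference from *D. mauritiana* was not the same in *D. melanogaster* and *D. simulans* by a test of the difference itself (edgeR, contrast over 12 libraries, adjusted over all genes), against 14.5 % of all genes tested. *Nplp1* differed by 4.45 on the log2 scale (SE 0.31, adjusted p = 4.22e-06), *slo* by 1.92 (SE 0.34, adjusted p = 0.00264) and *nSyb* by -0.85 (SE 0.19, adjusted p = 0.0100). Positive values mean that *D. melanogaster* stood higher relative to *D. mauritiana* than *D. simulans* did. *nSyb* was lower in 3 of 3 *D. melanogaster* libraries than in all 3 of *D. mauritiana* A to C and overlapped with *D. simulans*. *slo* lay on opposite sides without overlap in both comparisons. Its single-end difference was not called (edgeR adjusted p = 0.162). It had 22 to 44 counts per library in *D. melanogaster* and 15 to 23 in *D. mauritiana* A to C. The mean CPM of *slo* in *D. mauritiana* D to F was 7.33-fold that in A to C. *Nplp1* was higher in 3 of 3 *D. melanogaster* libraries. These 3 calls were kept without any 1 library. The comparisons also differ in read type and in the set of *D. mauritiana* libraries, which cannot be told apart from the species.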

How the results depend on the processing

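No gene of the group called in the main fits changed sign under an alternative. The small median difference between both comparisons over the group (0.06) did, running from -0.10 (without *D. mauritiana* A) to 0.35 (without *D. mauritiana* C). Genes not called in the main fits also did, as *cac* and *Sh* on the published models with *D. melanogaster*. With *D. simulans*, *gl* (0.19) was called at 0.28 without *D. mauritiana* F and at -1.06 on the direct models. There *futsch* went from -0.14 to a called 0.60 on the direct models. The genes called with *D. simulans* were 1348 higher and 1442 lower, and 1053 and 989 without *D. mauritiana* E. With *D. melanogaster*, edgeR called 1775 genes, and 3172 in 1 fit over 12 libraries. Leaving out each library in turn gave 849 (without *D. melanogaster* C) to 1913 genes (without *D. melanogaster* B), and 4 to 6 genes of the group. With *D. simulans*, 2790 genes were called, 1752 in 1 fit over 12 libraries, and 1633 (without *D. mauritiana* D) to 2673 without 1 library. The 8 genes of the group called there became 13 with DESeq2 (*NetB*, *Nrt*, *Sema1a*, *Syt1* and *fne* added), 2 with the published annotations, where the other 6 have no model, 4 in 1 fit over 12 libraries (*CadN*, *Fas2*, *fra* and *sli* lost) and 6 to 9 without 1 library. The 3 differences between both comparisons became 6 on the direct models (*NetA*, *futsch* and *gl* added) and 3 to 4 without 1 library. The causes were not tested. Same-letter libraries of *D. melanogaster* and *D. mauritiana* A to C had correlations of -0.237 (A), 0.202 (B) and 0.155 (C), so the letters were not taken as pairs, and not every library correlated best with its own letter. With a replicate block, 5 of the 6 genes (*nSyb* lost, adjusted p = 0.0536) and 1478 genes in all were called. Of the log2-fold changes given with values in every library (12 genes), 188 under the alternatives kept their side of the threshold, 12 lost it (*nSyb*, *brp*, *CadN* and *fra*) and 1 gained it (*fne* with *D. simulans*). Beyond these values, *sli* and *Fas2* lost calls with *D. simulans*, and *scrt*, *slo*, *Sh*, *cac*, *NetA* and *futsch* with *D. melanogaster* and *gl*, *futsch*, *Nrt*, *NetB*, *Sema1a* and *Syt1* with *D. simulans* gained them under 1 or more alternatives. Depth limits the least abundant genes, with 1 to 22 counts per library for *mAChR-A*, whose log2-fold change ran from -2.05 to -0.86 without 1 library.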

Other observations

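For the 5 genes with shortened models, the share of counts kept often differed from the share of length kept. The *gl* model kept 48.3 % of the length of the direct model but 29.3 % of its counts in *D. melanogaster*, 25.4 % in *D. mauritiana* A to C and 41.8 % in *D. mauritiana* D to F. The *CadN* model kept 50.6 % of the length and 90.3 % of the counts in *D. melanogaster*. The *futsch* model kept 45.3 % of the length and 11.1 % of the counts in *D. melanogaster*, and in *D. simulans* 65.8 % of the length and 64.0 % of the counts. The *NetA* model kept 51.1 % of the length and 18.7 % of the counts, and the *NetB* model 62.7 % and 46.0 %, both in *D. melanogaster*. By position, the reciprocal *CadN* model holds the 3′ end of the *D. melanogaster* coding sequence (nt 4599 to 9306), and those of *gl* (nt 1 to 986), *NetA* (nt 1 to 1115) and *NetB* (nt 1 to 1493) hold the 5′ end. The model that lost its 5′ end thus kept most of its counts, and those that lost their 3′ end kept a smaller share of counts than of length. This is a description of 4 genes and was not tested.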
